A study of Mus musculus with 6 samples.

Results

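The genes described here are 8 transcription factors of the trophoblast, the lineage that forms the fetal part of the placenta: Cdx2, Tfap2c, Tead4, Ascl2, Esx1, Gata2, Gata3 and Elf5. They were found by gene symbol, all 8 among the 25170 symbols of the table. They were read in 6 RNA-seq libraries of E14, an established line of mouse embryonic stem cells (ESCs). Leukemia inhibitory factor (LIF) keeps such cells self-renewing, and with it there were 1 wild type (WT) library and 2 Hnrnpf knockout (KO) libraries. After 4 days without LIF there were again 1 wild type and 2 knockout libraries, so the comparisons address what loss of this RNA-binding protein does in pluripotent and in differentiating cells. The ESC medium contained fetal bovine serum. Knockout libraries are called 1 and 2 by their labelled number. Nothing in the labels says which part of Hnrnpf was deleted, whether a number marks a clone, or whether libraries came from separate cultures, so the p-values speak only to how much these libraries vary, and that variation may be technical.

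The trophectoderm is the outer layer of the blastocyst and the first lineage to part from the pluripotent inner cells. In outer cells the kinases of the Hippo pathway are inactive, the coactivator YAP enters the nucleus, and TEAD4 with YAP switches on Cdx2 and Gata3. CDX2 and the pluripotency factor POU5F1 (OCT4) repress each other, and ESCs that lose Pou5f1 or are given Cdx2 turn into trophoblast-like cells. Without such a change mouse ESCs rarely enter this lineage. Several of the factors also act elsewhere: Cdx2 in the posterior mesoderm, Gata2 in blood progenitors, Gata3 in surface ectoderm and T cells, and Tfap2c in germ cells and in ESCs themselves.

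Values are FPKM (fragments mapped, scaled by transcript length and by library depth), which can be compared between genes. Differences are on the log2(FPKM + 1) scale, on which changes at low levels look smaller than they are. The limma test covered the 11785 genes whose mean over all libraries reached 1 FPKM, and a gene was called at a Benjamini-Hochberg adjusted p under 0.05. Of the members 6 passed this filter, and Gata2 and Elf5 did not. Summed FPKM ranged from 456155 to 556318 per library, and relative depth read from low values lay between 0.841 and 1.079 of the wild type library with LIF. Hnrnpf itself stood at 8.28% to 28.9% of the wild type level in the 4 knockout libraries. The ESC factors Pou5f1 (587 to 1150 FPKM), Sox2 (144 to 385) and Nanog (126 to 230) were present in every library. In bulk RNA, more cells of a type and more RNA per cell cannot be told apart.

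Tfap2c was the only member expressed at over 12 FPKM in any library, and Elf5 was at or near 0 throughout. By mean level the order was Tfap2c (19.5 FPKM), Esx1 (6.33), Ascl2 (4.14), Tead4 (2.43), Gata3 (1.21), Cdx2 (1.14), Gata2 (0.607) and Elf5 (0.0262). Tfap2c was the highest and Elf5 the lowest of the 8 in all 6 libraries. Between them the order was not fixed, since the ranges of all neighbours in this order overlapped over the libraries. Gata3 lay above Cdx2 in 3 of 6 libraries. Cdx2 and Gata3 were each under 1 FPKM in 3 libraries and Gata2 in 5. The mean of Gata2 exceeded that of 50.1% of all symbols in the table, and the mean of Tfap2c that of 81.8%.

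**Figure D1:**
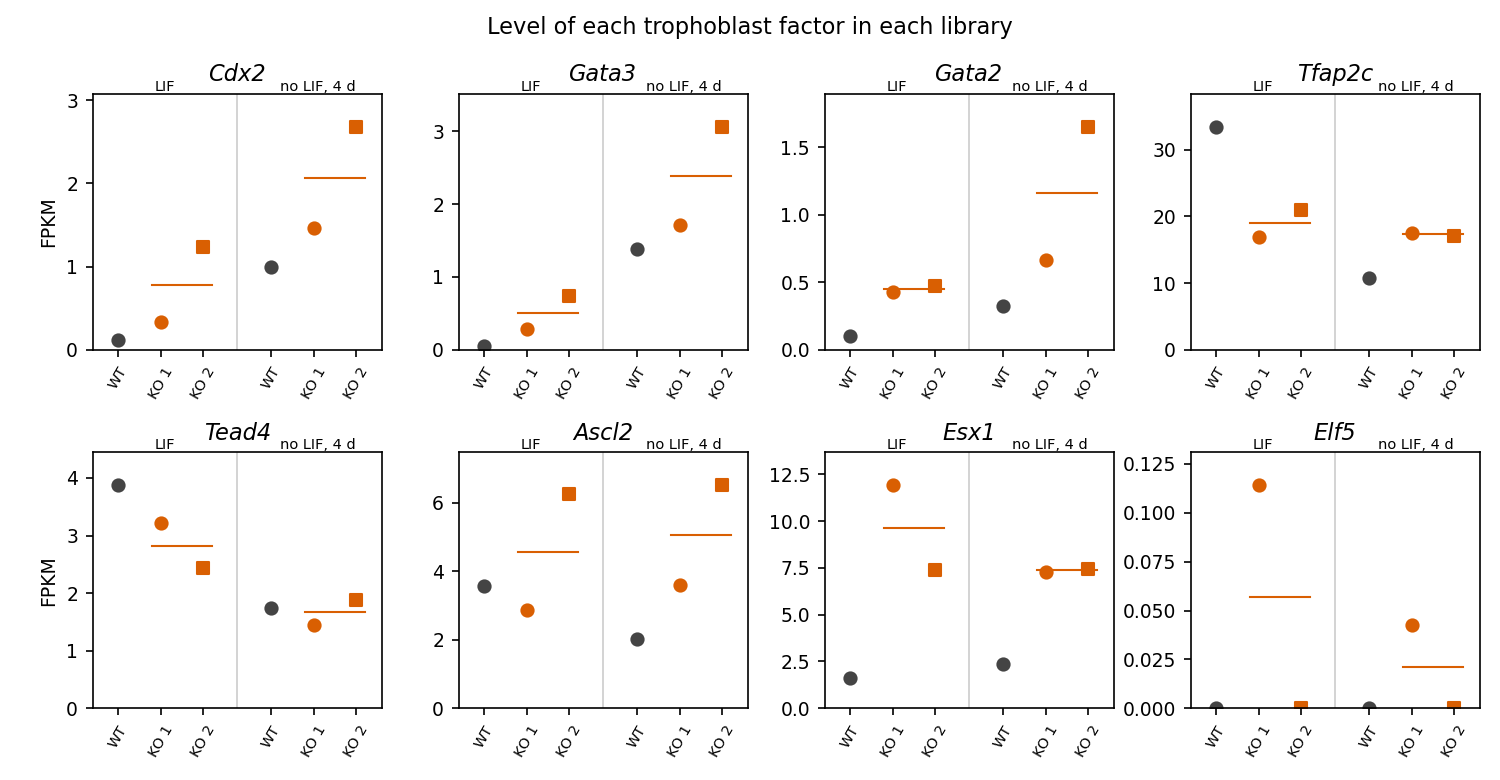
FPKM (linear axis from 0, a separate scale for each gene) of the 8 factors in the 6 libraries, wild type in grey and knockout in orange (circle, number 1, and square, number 2), with a line at the mean of 2 knockout libraries. Esx1 is higher in all 4 knockout libraries (7.29 to 11.9) than in both wild type libraries (1.60 and 2.37), and Tfap2c is highest in wild type cells with LIF (33.4).

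Over both media, Esx1 was the member that changed with genotype, and it rose in knockout cells. It was 1 of 6 tested members called higher, with none lower, where 10.5% of all tested genes were called (5.79% higher and 4.67% lower). No tested member lay lower in all 4 knockout libraries than in both wild type libraries, as 13% of tested genes did. On LIF removal over both genotypes, Gata3 rose and Tead4 fell. That is 1 of 6 called higher and 1 of 6 lower, where 21.4% of all tested genes were called (8.73% higher and 12.7% lower), so the share of members called was not far from that of all genes. The median difference of the 6 tested members was 0.54 for knockout and -0.09 for LIF removal, where all tested genes had -0.03 in both.

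**Figure D2:**
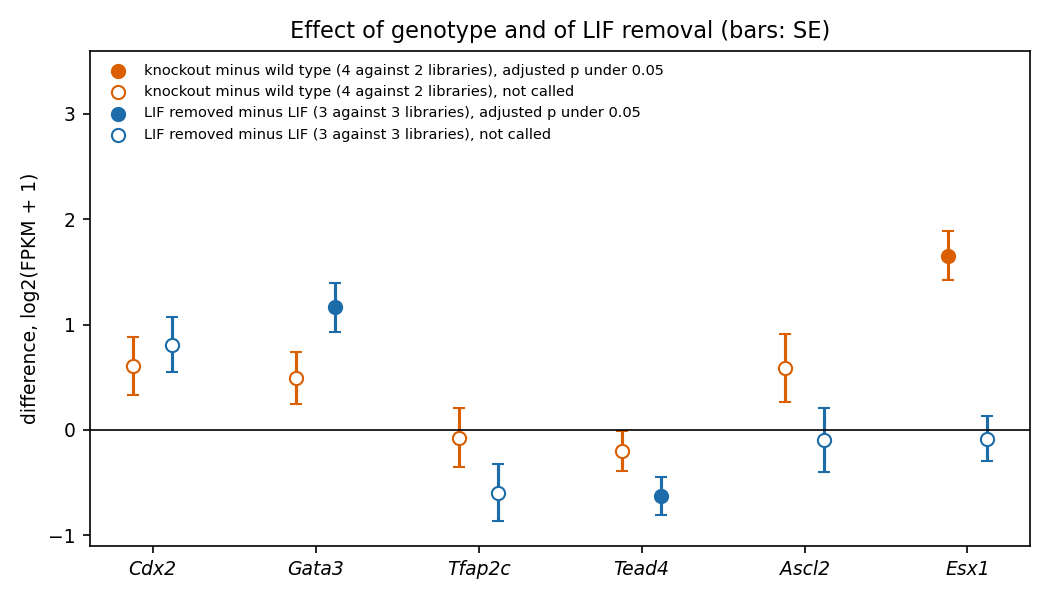
Difference on the log2(FPKM + 1) scale (vertical axis) for the 6 tested factors, knockout minus wild type in orange and LIF removed minus LIF in blue, with the standard error as bars. Filled points passed an adjusted p of 0.05 in limma: Esx1 for genotype (1.66), Gata3 (1.16) and Tead4 (-0.63) for LIF removal.

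Tead4 (chromosome 6, 128227143 to 128300813, GRCm38) encodes the TEA-domain partner of YAP that acts upstream of Cdx2 in the embryo. With LIF it stood at 3.87 FPKM in wild type cells and at 3.21 and 2.44 in knockout libraries 1 and 2. Without LIF it stood at 1.74 in wild type cells and 1.45 and 1.88 in knockout cells. All 3 libraries without LIF lay below all 3 with LIF, a separation that 16.8% of tested genes showed in this direction. On the log2 scale Tead4 fell by 0.63 with LIF removal (limma, SE 0.18, adjusted p = 0.0430). The call is close to the threshold: over the alternatives the adjusted p lay between 0.0282 and 0.199, and leaving out any library except knockout 2 with LIF (adjusted p = 0.0499) ended it. Genotype gave -0.20 (SE 0.19, adjusted p = 0.547).

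Tead4 had the lowest mean of the 4 TEAD genes, though not the lowest value in every library. Tead2 stood at 48.6 to 107 FPKM, Tead1 at 9.77 to 21.5 and Tead3 at 3.17 to 13.3. Tead1 rose on LIF removal (0.63, SE 0.18, adjusted p = 0.0444), opposite to Tead4. Tead2 fell in knockout cells (-0.71, SE 0.16, adjusted p = 0.0313), with 95.1 and 107 FPKM in the wild type libraries and 48.6 to 77.0 in the knockout libraries. That call was lost without a filter or a trend, and without either wild type library or knockout 2 with LIF. All 20 genes of the Hippo pathway, TEAD cofactors and targets were tested. On LIF removal 8.73% of all tested genes were called higher and 12.7% lower, with a median of -0.03. Of the 20 genes, 10 rose and 1 fell, with a median difference of 0.59. When either wild type library or knockout 1 with LIF was left out, 5 were called higher. Those with the lowest p were Ccn2 (2.07, adjusted p = 0.00100) and Ccn1 (3.09, adjusted p = 0.00110), secreted matricellular proteins that are targets of YAP and TEAD, and Amot (1.60, adjusted p = 0.00156), the angiomotin that binds YAP. Nf2, the Hippo activator merlin, fell (-0.53, adjusted p = 0.00871), a call lost without either wild type library. Yap1 itself stood at 54.2 to 78.9 FPKM and was not called (0.28, adjusted p = 0.103). With genotype, 1 of the 20 rose and Tead2 fell, where 5.79% of all tested genes were called higher and 4.67% lower. The riser was Mob1a (1.18, SE 0.12, adjusted p = 0.00511), a cofactor of the LATS kinases on chromosome 6 (83326034 to 83342812), in a stretch where most genes were higher in knockout cells, as given with Gata2. Without either wild type library Mob1a was not called.

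Cdx2 (chromosome 5, 147300900 to 147307249) encodes the caudal-type homeodomain factor needed for trophectoderm. It was lowest in wild type cells with LIF, at 0.121 FPKM, where knockout libraries 1 and 2 stood at 0.339 and 1.23. After LIF removal it was 0.995 in wild type cells and 1.46 and 2.68 in knockout cells. In each medium both knockout libraries lay above the wild type library, but across media the groups overlapped, since wild type cells without LIF lay between the knockout libraries with LIF. Neither difference passed: LIF removal gave 0.81 (SE 0.26, adjusted p = 0.0592) and genotype 0.61 (SE 0.28, adjusted p = 0.197). Without knockout 2 with LIF, the library with the highest value in that medium, the difference on LIF removal was 1.02 and was called (adjusted p = 0.0450). Over all alternatives its adjusted p lay between 0.0116 and 0.190. The mean of the knockout libraries was 6.50 times the wild type value with LIF and 2.08 times after LIF removal, both ratios of values near or under 1 FPKM in wild type cells.

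Gata3 (chromosome 2, 9857078 to 9887953) encodes a zinc finger factor that acts beside Cdx2 downstream of TEAD4. It stood at 0.0512 FPKM in wild type cells with LIF and at 0.286 and 0.735 in knockout libraries 1 and 2. Without LIF it was 1.39 in wild type cells and 1.71 and 3.06 in knockout cells. All 3 libraries without LIF lay above all 3 with LIF, as did 14.9% of tested genes. On the log2 scale Gata3 rose by 1.16 with LIF removal (limma, SE 0.23, adjusted p = 0.0117), 1.18 in wild type cells (1 library against 1, no test) and 1.15 in knockout cells alone (SE 0.30, adjusted p = 0.0707). The call was lost without the wild type library with LIF (adjusted p = 0.0669) or without the one after LIF removal (0.0703), and its adjusted p over all alternatives lay between 0.00245 and 0.0703. With a pseudocount of 0.1 the difference was 2.48. Genotype gave 0.49 (SE 0.24, adjusted p = 0.237).

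With 6 libraries a high Pearson r is common. Of 8295 named genes whose mean reached 5 FPKM, 74 reached 0.95 with Cdx2 and 149 with Gata3. Cdx2 and Gata3, each under 1 FPKM in 3 libraries, ran in parallel (Pearson r = 0.956 of log2 values, a description over libraries that share line and medium). Both ran opposite to Tead4 (r = -0.810 and -0.877). For this reason the upstream sequences of both are shown, from RefSeq on GRCm38.p6, 250 bases up to the start site, 5′ to 3′ on the strand of the gene. Motifs were searched on both strands in windows of 300 bases (250 before and 50 after the start): AGATAA or TGATAA for GATA factors, GGAATG for TEAD, the GC box GGGCGG, the CCAAT box, the TATA box TATAAA and the octamer ATGCAAAT that POU factors bind. Capitals mark each match. The Cdx2 stretch is chr5:147307250-147307499 and the Gata3 stretch chr2:9878601-9878850, both on the minus strand. The Cdx2 stretch adjoins the end of the gene span given above, while the Gata3 start used by RefSeq's window lies inside the span of Gata3, downstream of its outermost start.
Cdx2: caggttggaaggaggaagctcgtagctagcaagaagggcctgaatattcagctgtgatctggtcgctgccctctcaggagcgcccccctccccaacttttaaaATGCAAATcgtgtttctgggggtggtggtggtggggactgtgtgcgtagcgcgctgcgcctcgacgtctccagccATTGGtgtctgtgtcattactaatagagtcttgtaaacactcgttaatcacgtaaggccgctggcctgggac
Gata3: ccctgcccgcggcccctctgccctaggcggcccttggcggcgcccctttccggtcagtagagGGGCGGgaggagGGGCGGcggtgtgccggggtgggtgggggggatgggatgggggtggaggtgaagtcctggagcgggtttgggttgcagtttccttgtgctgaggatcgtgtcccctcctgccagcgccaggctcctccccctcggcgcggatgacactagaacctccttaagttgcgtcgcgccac
The Cdx2 window holds 1 octamer, its first base 147 bases upstream of the start, and 1 CCAAT on the other strand. The octamer is present in 1.74% of the 32851 promoter windows and CCAAT in 37.4%. The Gata3 window holds 2 GC boxes, found in 35.7% of windows. Neither window holds the GATA (18.6% of windows) or TEAD (14.7%) letters or TATAAA (13.6%), which says only that these letters are not in the windows. Promoter windows were matched for 6 of the 8 members, not Tfap2c and Tead4.

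Cdx2 was not called on LIF removal. Pou5f1, Sox2 and Nanog, which oppose Cdx2 in the embryo, all fell, where 12.7% of all tested genes were called lower. Of these 3 calls 1 held with quantile normalization, without a filter or without knockout 2 with LIF, and 2 with median ratio scaling, without a trend, and without either wild type library, knockout 1 with LIF or knockout 2 after LIF removal. Nanog was nearest the threshold (adjusted p = 0.0470), at 189 and 185 FPKM in knockout 1 with and without LIF. Pou5f1 fell by 0.55 (adjusted p = 0.0171), and its lowest value was 587 FPKM, in knockout 1 after LIF removal.

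The level of Cdx2 and Gata3 was higher in knockout 2 than in knockout 1 in both media. For Cdx2 the ratio of number 2 to number 1 was 3.64 with LIF and 1.83 after LIF removal, and for Gata3 2.57 and 1.78. Of the 8 members 4 (Cdx2, Gata3, Gata2 and Ascl2) lay higher in number 2 in both media. Of the tested genes, to which Gata2 and Elf5 do not belong, 31.2% did. These are single libraries with no test.

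Gata2 (chromosome 6, 88193891 to 88207032), a relative of Gata3 that activates placental hormone genes, lay below the filter. It stood at 0.101 FPKM in wild type cells with LIF and 0.425 and 0.470 in knockout libraries 1 and 2. In cells without LIF it was 0.325 in wild type cells and 0.668 and 1.65 in knockout cells. All 4 knockout libraries were above both wild type libraries, a separation shown in this direction by 11.9% of tested genes. In a fit without the filter genotype gave 0.53 (SE 0.20, adjusted p = 0.210) and LIF removal 0.45 (SE 0.19, adjusted p = 0.179). Its neighbours were also higher in knockout cells: the 80 tested genes within 5 Mb of Gata2 had a median knockout minus wild type difference with LIF of 0.60 in knockout 1 and 0.61 in knockout 2. Without LIF these medians were 0.67 and 0.64. Of these neighbours 44 were called higher and 1 lower for knockout over both media, where 5.79% of all tested genes were called higher and 4.67% lower. Gata2 differed by 0.37, 0.42, 0.33 and 1.0 in the same libraries. The added 1 compresses the difference of a gene this low: in FPKM, Gata2 in these libraries stood at 421%, 464%, 206% and 509% of the wild type library of the medium. What part the stretch plays in the Gata2 values was not tested.

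**Figure D3:**
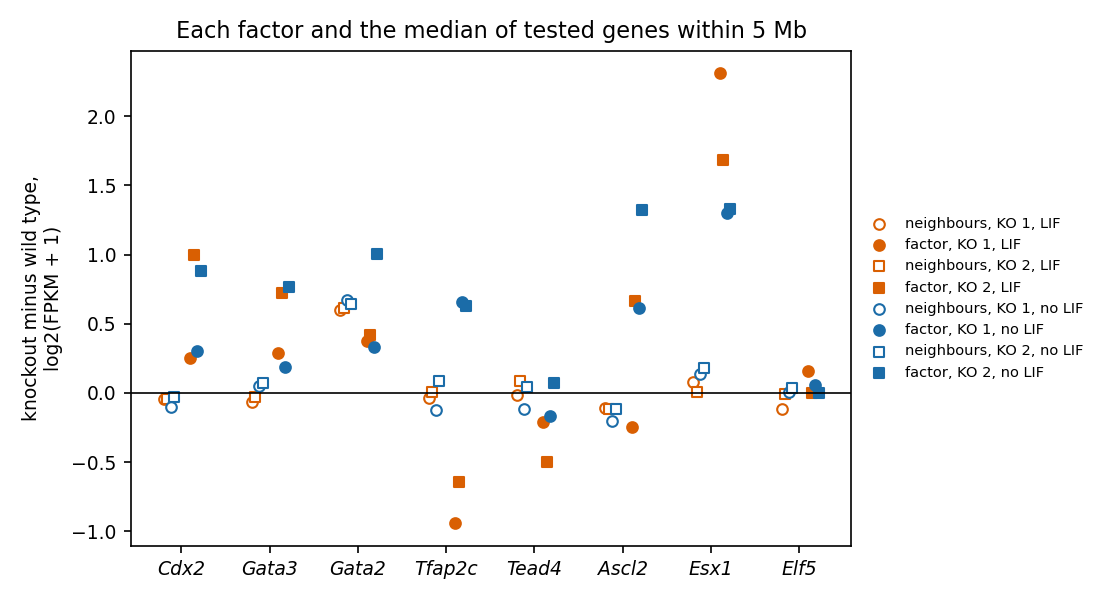
Knockout minus wild type difference in the same medium (log2(FPKM + 1), vertical axis) of each factor (filled) and the median of the tested genes whose start lies within 5 Mb (open), for the 4 knockout libraries. The neighbours of Gata2 lie between 0.60 and 0.67, while those of the other 7 factors lie between -0.20 and 0.18.

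Tfap2c (chromosome 2, 172545678 to 172558622) encodes AP-2 gamma, which trophoblast stem cells need and which is also present in ESCs and germ cells. With LIF it stood at 33.4 FPKM in wild type cells and at 16.9 and 21.0 in knockout libraries 1 and 2. After LIF removal it stood at 10.7 in wild type cells and at 17.5 and 17.1 in knockout cells. The wild type level after LIF removal was thus 0.321 of that with LIF (-1.55 on the log2 scale, 1 library against 1), while the knockout mean went from 19.0 ± 2.91 to 17.3 ± 0.257 FPKM (SD, n = 2), a ratio of 0.913. Knockout libraries lay below the wild type library in one medium and above it in the other. The knockout difference was -0.79 with LIF (SE 0.20, adjusted p = 0.139) and 0.65 after LIF removal (SE 0.20, adjusted p = 0.209), and over both media -0.07 (SE 0.28, adjusted p = 0.893). The test of the difference between the responses to LIF removal gave 1.44 (SE 0.28, unadjusted p = 0.0016) and did not pass over all genes (limma adjusted p = 0.9996, and 0.197 to 1.0 over the alternatives). No gene was called there (0% of 11785, with 340 at an unadjusted p under 0.05). The wild type side of this test rests on 1 library in each medium, and the knockout side on 2.

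The AP-2 relative Tfap2a, a factor of surface ectoderm and neural crest, behaved otherwise: it stood at 0.431 to 0.691 FPKM with LIF and 1.97 to 2.56 without, and rose by 1.0 (SE 0.19, adjusted p = 0.00970). Tfap2b and Tfap2d did not exceed 0.0442 FPKM in any library. Of the 22 family relatives of the 8 factors, 8 were tested, of which Tfap2a and Tead1 rose on LIF removal and Tead2 fell in knockout cells. Of all tested genes, 8.73% were called higher and 12.7% lower on LIF removal, and 5.79% higher and 4.67% lower for genotype. Without an intensity trend, or when 1 of 3 knockout libraries was left out (either with LIF, or number 2 after LIF removal), 1 relative was called on LIF removal. The median over the 8 was 0.17 for LIF removal and -0.24 for genotype, where all tested genes had -0.03 in both.

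Elf5 (chromosome 2, 103412098 to 103450989) encodes the ETS factor that locks in the trophoblast stem cell state together with Cdx2 and Eomes. It was listed at 0 in 4 libraries, and at 0.114 and 0.0427 FPKM in knockout 1 with LIF and after LIF removal. It was not tested in the filtered fit, and without the filter genotype gave 0.05 (SE 0.06, adjusted p = 0.686). An exact 0 in such a table can be a failed estimate, but no library exceeded 0.114. Its relatives Elf2 (8.25 to 10.6 FPKM) and Elf3 (17.3 to 28.5) were expressed and not called for genotype or medium.

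Ascl2 (chromosome 7, 142966822 to 142969264) encodes the basic helix-loop-helix factor of the spongiotrophoblast and is imprinted, with expression from the maternal allele in the placenta. It stood at 3.57 FPKM in wild type cells with LIF and 2.86 and 6.25 in knockout libraries 1 and 2. Without LIF it was 2.01 in wild type cells and 3.61 and 6.51 in knockout cells. Genotypes and media both overlapped. Knockout 2 stood at 2.19 and 1.80 times knockout 1 with and without LIF, and the knockout mean at 1.27 and 2.52 times the wild type value. Genotype gave 0.59 (SE 0.32, adjusted p = 0.279) and LIF removal -0.10 (SE 0.30, adjusted p = 0.845). With LIF the knockout difference was 0.21 (adjusted p = 0.857) and after LIF removal 0.97 (SE 0.45, adjusted p = 0.359).

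Esx1 (chromosome X, 137115397 to 137122131) is an X-linked homeobox gene of the placental labyrinth and the testis. It stood at 1.60 FPKM in wild type cells with LIF and at 11.9 and 7.36 in knockout libraries 1 and 2. After LIF removal it was 2.37 in wild type cells and 7.29 and 7.46 in knockout cells. The knockout libraries stood at 308% to 743% of the wild type library of their medium. All 4 lay above both wild type libraries, a separation that 11.9% of tested genes showed in this direction. Over both media Esx1 rose in knockout cells by 1.66 (log2 scale, SE 0.23; limma, adjusted p = 0.0104), higher in 4 of 4 knockout libraries. Within a medium it was not called (2.00, adjusted p = 0.0989 with LIF, and 1.31, adjusted p = 0.150 after LIF removal). The call was lost when the wild type library with LIF (adjusted p = 0.149) or after LIF removal (0.0986) was left out, which leaves 1 medium with a wild type library. Over all alternatives the adjusted p lay between 0.00982 and 0.149. LIF removal gave -0.08 (SE 0.22, adjusted p = 0.813).

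For the genes around Esx1 the values were smaller: the 49 tested genes within 5 Mb had median differences from 0.00 to 0.18 in the 4 knockout libraries, against 1.30 to 2.31 for Esx1. Of the 49, 3 were called higher and none lower, where 5.79% of all tested genes were called higher and 4.67% lower. The stretch of 250 bases upstream of its start (chrX:137120327-137120576, minus strand, RefSeq, GRCm38.p6) is shown because Esx1 is the member that changed with genotype, with CpG dinucleotides in capitals. This RefSeq start lies inside the gene span given above, downstream of its outermost start.
Esx1: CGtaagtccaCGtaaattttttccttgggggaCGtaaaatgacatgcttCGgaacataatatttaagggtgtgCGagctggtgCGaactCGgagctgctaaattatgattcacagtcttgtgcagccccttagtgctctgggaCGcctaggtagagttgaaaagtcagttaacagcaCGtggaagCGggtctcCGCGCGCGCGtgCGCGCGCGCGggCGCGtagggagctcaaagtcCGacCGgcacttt
It holds 24 CpG dinucleotides, with runs of CG of up to 10 bases near the start, and none of the 6 motifs. Of all promoter windows, 20.0% hold at least as many CpG as the window of Esx1. The 2 windows of Gata2 hold more, 32 and 29 (at least as many in 9.52% and 12.9% of windows). The window of Gata3 holds 22, of Ascl2 23 and of Cdx2 18, and the 2 windows of Elf5 hold 3 and 10, where the median over all windows is 7.

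Within a medium no member was called for genotype (limma, 0 of 6 in each, 2 at an unadjusted p under 0.05 in each, Esx1 and Tfap2c). The background there is 0.0424% of tested genes with LIF and 0.0594% after LIF removal. In LIF removal of knockout cells alone, 6.92% of all genes were called (3.05% higher and 3.88% lower) and no member (1 at an unadjusted p under 0.05, Gata3). In wild type cells, 1 library against 1, Gata3 was higher by at least 1 on the log2 scale (1.18) and Tfap2c lower (-1.55), where 8.36% of tested genes passed that size (3.80% higher and 4.56% lower).

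Other trophoblast genes gave no common direction. Of the 18 genes of the trophoblast stem cell and trophectoderm list, all tested, 4 rose and 5 fell on LIF removal, with a median of -0.02. Of all tested genes 8.73% were called higher and 12.7% lower. The keratins Krt8 (1.98, SE 0.31, adjusted p = 0.00536) and Krt18 (1.60, adjusted p = 0.00551), intermediate filament genes of simple epithelia, rose, as did Id2 (0.66, adjusted p = 0.0121), an inhibitor of basic helix-loop-helix factors, and Eomes, which also marks mesendoderm. With LIF, Krt8 stood at 8.06 FPKM in the wild type and at 14.9 and 25.8 in the knockout libraries, and without LIF at 35.3, 51.2 and 123. Esrrb (-1.77, adjusted p = 0.00230), which serves both trophoblast stem cells and naive ESCs, was among the genes that fell, with Plet1, Bmp4 and Lgals3. Without either wild type library 2 were called higher and 1 lower. Without a filter on low values 1 was called lower, without knockout 2 with LIF 3, and without knockout 1 after LIF removal 2. For genotype none of the 18 was called (limma, 4 at an unadjusted p under 0.05), with Krt18 at 0.98 (adjusted p = 0.0572) and Krt8 at 1.17 (0.0613). Without knockout 1 after LIF removal 2 were called higher, and without knockout 2 after LIF removal 1.

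Genes of the placental list were mostly silent or low, but their summed level was 152 to 224 FPKM per library. Much of it came from Cited2 (47.9 to 128 FPKM) and Phlda2 (31.9 to 153), and Ovol2 stood at 5.42 to 10.2. Of 20, 6 were tested, 12 were under 1 FPKM in every library, and 9 of them, among them Tpbpa of the spongiotrophoblast, the prolactin-family genes Prl3d1, Prl2c2, Prl3b1 and Prl8a9, and Synb of the syncytium, were listed at 0 in all 6. Of the 6 tested, 3 rose and 1 fell on LIF removal, where 8.73% of all tested genes were called higher and 12.7% lower. Hand1, a factor of trophoblast giant cells and of mesoderm, was listed at 0 in wild type cells with LIF and stood at 0.739 and 2.24 FPKM in knockout libraries 1 and 2. Without LIF it was 1.33 in wild type cells and 2.87 and 4.41 in knockout cells. It rose on LIF removal (1.04, SE 0.27, adjusted p = 0.0300) and in knockout cells (1.11, SE 0.29, adjusted p = 0.0466). The latter call is the 1 of 6 for genotype, where 5.79% of all tested genes were called higher and 4.67% lower. It was lost with quantile normalization, without a trend and without a filter. It was also lost without either wild type library, knockout 2 with LIF or either knockout library after LIF removal. Without knockout 1 after LIF removal, 1 gene of the list was called lower. Cited1 (1.72, adjusted p = 0.0214) and Cited2 (0.79, adjusted p = 0.0216), transcriptional cofactors needed in the placenta, rose on LIF removal, and the imprinted Phlda2 fell (-0.92, adjusted p = 0.0417). Without either wild type library none of the 6 was called on LIF removal, and 1 was called higher without a filter, without knockout 1 with LIF or without knockout 2 after LIF removal. The fall of Phlda2 was also lost with quantile normalization and without a trend.

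**Figure D4:**
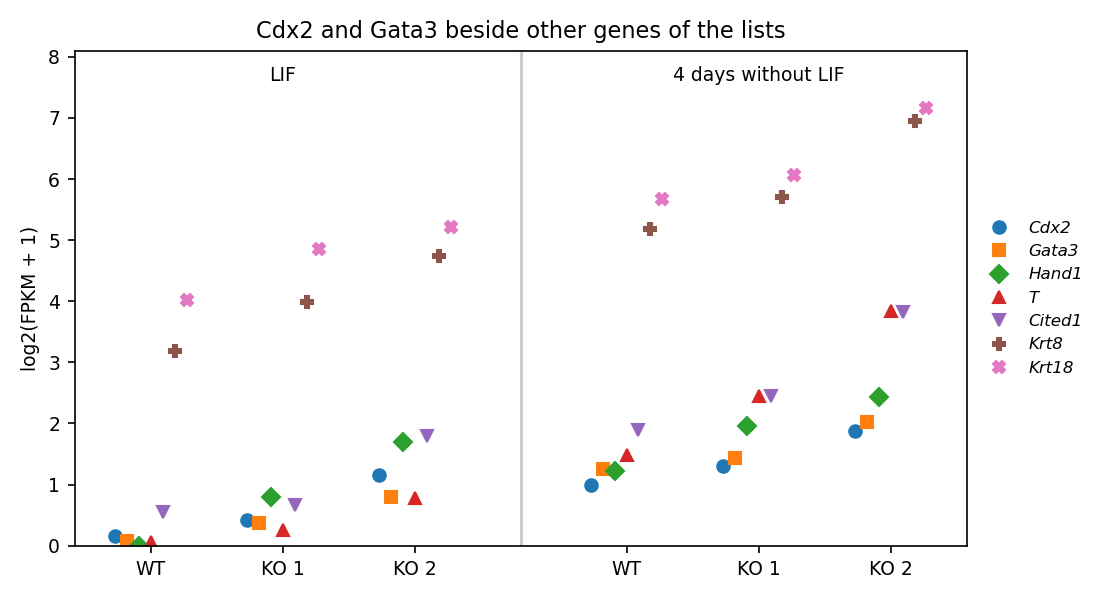
Level on the log2(FPKM + 1) scale (vertical axis) of Cdx2 and Gata3 and of 5 other genes of the lists, picked for the plot after their values were seen, in the 6 libraries (horizontal axis). In each medium all 7 plotted genes are higher in both knockout libraries than in the wild type library, which their choice fixes. Other genes of the same lists lie lower, such as Ets2 (10.6 and 10.2 FPKM in wild type, 6.98 to 7.56 in knockout libraries) and, within each medium, Phlda2.

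Markers of other cell types that use these factors differed in how they varied with the medium. The summed level of 14 posterior mesoderm and primitive streak genes was 8.60 to 10.9 FPKM with LIF and 27.9 to 58.5 after LIF removal. Of these, 3 of 4 tested rose, where 8.73% of all tested genes did: Fgf8 (2.42), Wnt3 (2.03) and T (Brachyury, 2.23, adjusted p = 0.00793). Of the 14, 6, among them the Cdx2 relative Cdx4 and Msgn1, stayed under 1 FPKM in every library. The 8 primitive endoderm genes summed to 2.54 to 5.66 FPKM with LIF and 5.98 to 13.5 without. Dab2 rose (1.57, adjusted p = 0.00693), and Gata6, Sox17, Sox7, Foxa2 and Pdgfra stayed under 1. Surface ectoderm genes summed to 16.3 to 22.2 and 18.9 to 27.0, with Tfap2a the 1 of 3 tested that rose and Trp63, Krt5 and Krt14 under 1 throughout. None of the 8 blood and endothelium genes passed the filter (sums 0.761 to 3.20 and 2.85 to 3.84). What part these cell types play in the values of Cdx2, Gata3 and Gata2 was not tested.

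Germ cell markers share Tfap2c. The 8 primordial germ cell genes summed with LIF to 82.9 FPKM in the wild type library and to 102 and 124 in knockout libraries 1 and 2. Without LIF the sums were 50.6, 77.2 and 72.2. With LIF the higher knockout sums rested on Dppa3, at 50.5 and 70.9 FPKM in knockout libraries 1 and 2. Without Dppa3 both would lie below the wild type sum. In that medium Dnd1 and Ddx4 were also higher in both knockout libraries than in wild type cells. Prdm1, Prdm14, Nanos3 and Kit were lower in both, and Dazl was lower in number 1 only. On LIF removal 3 of the 8 genes fell and 1 rose, where 12.7% of all tested genes were called lower and 8.73% higher. Dppa3 (-0.93, adjusted p = 0.00646), Prdm14 (-1.13, adjusted p = 0.0142) and Prdm1 (-0.61, adjusted p = 0.0384) fell, and Ddx4 rose (0.68, adjusted p = 0.0164). In knockout cells Dppa3 rose (1.10, adjusted p = 0.0111) and Prdm1, the germ cell repressor BLIMP1, fell (-1.01, adjusted p = 0.0166). Both calls for genotype were lost without either wild type library, and that of Prdm1 also without a filter. On LIF removal 1 gene was called lower without a filter or without either wild type library, and 2 without either knockout library with LIF. The rise of Ddx4 was lost without either wild type library or knockout 1 with LIF. The early neural list had Nes higher (2.01) and Tubb3 lower (-0.51) on LIF removal, of 3 tested. The call of Tubb3 was lost without a filter, with either other scaling, without a trend and without any 1 of the 4 knockout libraries. Of the 7 fibroblast feeder genes 1 was tested and not called (limma, 0 at an unadjusted p under 0.05).

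Genes whose pattern over the 6 libraries was most like each tested member were picked by Pearson r of log2 values among 8295 named genes whose mean reached 5 FPKM. With 6 libraries high values are common: 149 of these genes reached 0.95 with Gata3, 107 with Tead4, 74 with Cdx2, 66 with Esx1, 8 with Tfap2c and 7 with Ascl2. The nearest were Btg2 (0.996) for Gata3, with Krt8 at rank 3 (0.991), Poc1a (0.992) for Tead4, Irak1bp1 (0.996) for Cdx2 and Birc2 (0.997) for Esx1. For Esx1 the second was Tcf7 (0.995), a Wnt effector, with 35.6 and 37.5 FPKM in the wild type libraries and 48.2 to 55.2 in knockout cells. For Tfap2c the nearest was Vkorc1 (0.981), at 58.0 FPKM in wild type cells with LIF, 30.1 after LIF removal and 39.7 to 42.9 in knockout cells. For Ascl2 it was Pgrmc1 (0.978).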

How the data were processed

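Expression was measured by RNA-seq of total RNA in 6 mouse ESC libraries. The authors deposited 1 table of FPKM, 1 value per gene symbol and library. The submitters' processing notes name STAR, Cufflinks and mm10. Their versions, the annotation and the strand setting are not given in these sources, so overlapping and antisense genes may share reads, and genes with close copies are uncertain. The number of reads behind a value is not known, so no counting interval is given. Relative depth was read from the commonest ratio of values under 0.3 FPKM.

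Tests used limma 3.58.1 on log2(FPKM + 1), with no added scaling, in R 4.3.3 (intensity trend, two-sided). An additive model of genotype and medium (3 residual and 5.08 prior degrees of freedom) gave both average effects. A fit with 4 groups (2 residual and 4.70 prior) gave the effects within a medium or genotype and the difference of responses. There the spread comes from the knockout libraries, and a lone wild type library is assumed to vary like them. Scripts were tested on simulated data. Members and lists were chosen with earlier results of these data known. The genes named were the members, Hnrnpf, up to 4 genes of each list with the lowest p in the 2 averaged comparisons, and the 3 genes most like each tested member. Alternatives were a pseudocount of 0.1, no filter, quantile and median ratio scaling, no trend, a replicate block, the compared groups alone, and leaving out each library. Positions and sequences are from RefSeq on GRCm38.p6, the patch release of mm10. Other list genes named (Eomes, Plet1, Bmp4, Lgals3, Ets2, Yap1, Nf2, Tead1, Tead2, Tead3, Tfap2b, Tfap2d, Elf2, Elf3, Ovol2, Nanos3, Kit, Dnd1, Dazl and the markers at 0 or under 1 FPKM) were chosen after their values were seen. A called gene of the trophoblast stem cell list is counted but not reported here by name.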

Additional observations from a re-analysis of the deposited data

Results flagged for a closer look

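The knockout difference of Tfap2c had opposite signs in the 2 media. Both knockout libraries lay below the wild type library with LIF (16.9 and 21.0 against 33.4 FPKM) and both above it after LIF removal (17.5 and 17.1 against 10.7). The difference of the responses, knockout minus wild type, was 1.44 on the log2 scale. It was tested and did not pass over all genes (limma adjusted p = 0.9996).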

How the results depend on the processing

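The calls of Esx1 and Gata3 were lost only when a wild type library, 1 in each medium, was left out. That of Tead4 was also lost without a filter and without any knockout library except number 2 with LIF. Of the alternative values of the 6 tested members over the 6 tested comparisons, 369 kept their direction and side of the threshold, 10 lost and 4 gained a call, and 19 changed sign, none of these called. The called differences of Esx1, Gata3 and Tead4 kept their direction throughout. Without a filter on low values 1 member instead of 2 was called on LIF removal (Tead4, adjusted p = 0.0825). All genes called then fell from 1232 to 335 for knockout over both media, from 816 to 0 for LIF removal in knockout cells, and to 0 for knockout with LIF (from 5) and after LIF removal (from 7). Without a trend the last 2 counts were 0 and 4. After LIF removal the count was 13 with a pseudocount of 0.1 and 16 with the compared groups alone. The signs of the difference of LIF responses of Cdx2 (0.0552) and Gata3 (0.0122) changed with quantile normalization from -0.03 each. In wild type cells a pseudocount of 0.1 moved the LIF removal differences to 2.31 for Cdx2, 3.30 for Gata3, 1.08 for Gata2 and -1.11 for Tead4.

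The knockout numbers recur in both media, but the labels do not say that they pair samples. The difference of number 1 minus 2 correlated between media over genes (r = 0.366), with only 2 pairs. With the number as a replicate block, genes called for LIF removal in knockout cells rose from 816 to 2621 and members from 0 to 2 (Cdx2, adjusted p = 0.0391, and Gata3, 0.0100), and Cdx2 was called for LIF removal over both genotypes (adjusted p = 0.0116). The block cannot be combined with the effect of genotype.

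Leaving out 1 library at a time, members called were 0 to 1 for knockout over both media and 0 to 3 for LIF removal over both genotypes, and 0 in the other comparisons. All genes called were 5 to 994 and 817 to 1924 in these 2, 4 to 14 for knockout with LIF, 5 to 16 for knockout after LIF removal, 124 to 821 for LIF removal in knockout cells and 0 to 1 for the difference of responses. The differences that changed sign ranged, for knockout over both media, from -0.79 to 0.65 (Tfap2c), and for LIF removal over both genotypes from -0.43 to 0.16 (Ascl2) and -0.31 to 0.16 (Esx1). They ranged from -0.25 to 0.66 (Ascl2, knockout with LIF) and -0.16 to 0.0703 (Tead4, knockout after LIF removal). In LIF removal of knockout cells they were -0.30 to 0.61 (Ascl2), -0.62 to 0.0018 (Esx1) and -0.27 to 0.0317 (Tfap2c). In the difference of responses they were -0.40 to 0.34 (Cdx2) and -0.32 to 0.26 (Gata3). Causes were not tested.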
